A study of Mus musculus with 4 samples.

Results

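The libraries of 4T07 cells carrying replicate number 2 were compared with those carrying replicate number 1, with the group label as a factor. 4T07 cells are a line of murine mammary carcinoma, with Balb/cfC3H given as the strain. Genes were members when they reached 1 RPKM (reads scaled by gene length and read total) in at least 2 of the 4 libraries, which held for 10654 of the 24421 genes in the table, or 43.6%. The gene just inside this limit, Fam214a, had a second-highest value of 1.0005 RPKM, and the gene just outside it, 6720489N17Rik, had 0.9997 RPKM. Each number stood for 2 libraries, 1 labelled control and 1 labelled as overexpressing Six2, a homeobox transcription factor. All cells were grown in high-glucose DMEM with 10% calf serum, glutamine and non-essential amino acids at 37 °C and 5% CO2, to 75 to 80% confluency, and lysed 48 hours after plating. The vector and clonality of the cells, and what a replicate number stands for (a culture, a day, a library preparation), are not given in the sources used. Such differences cannot be told apart here, and every p-value is set against variation among 4 libraries that may be purely technical.

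Six2 itself had 0 RPKM in both control libraries, 0.0285 RPKM in Six2-labelled replicate 1 and 0 in Six2-labelled replicate 2, and the label is used below as a name only. Read totals recovered from the table were 43110985 in control replicate 1, 41881864 in its replicate 2, 49910629 in Six2-labelled replicate 1 and 81524250 in its replicate 2. A count of 0 allows up to 3 reads, or between 0.0368 and 0.0716 RPKM on a gene of 1 kb, with counting error alone in view. Between 5.22% and 6.02% of reads fell on the top 10 genes. Of 8 markers listed for the line 7 passed the filter, and the highest value below it was 0.720 RPKM. Krt8, a keratin of simple epithelium, lay between 607 and 1059 RPKM. Vim, the mesenchymal intermediate filament gene, was named after its values were seen and lay between 1300 and 1553 RPKM. Below, 4 values of a gene are always RPKM in the order control 1, control 2, Six2-labelled 1, Six2-labelled 2.

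Cultured tumour cells adjust many housekeeping programmes to nutrient, serum and density conditions. Growth factor signalling through ERK and MYC drives production of ribosomes, chaperones and cell cycle proteins, and spread cells with tense actin fibres activate YAP/TAZ and SRF target genes. When nutrients or growth factors decline, FOXO and MiT/TFE factors raise growth-arrest, lysosomal and autophagy genes, and p27 and pocket proteins hold cells before S phase.

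Replicate number went with small differences over a large part of the transcriptome. In limma-trend on log2(RPKM + 1) with Benjamini-Hochberg adjustment over all members, 2201 genes were higher in number 2 at an adjusted p under 0.05, 20.7% of those tested, and 2570 were lower, 24.1%. Together these were 4771 genes, 44.8%, with a median size of 0.33 on the log2 scale. The shares of 20.7% and 24.1% are the background for the count of each list below. A fitted difference of at least 2-fold was reached by 20 genes upward (0.188%) and 79 downward (0.742%). All 4 libraries were apart by number, both 2s above both 1s, for 2512 genes (23.6%), and below for 2623 genes (24.6%). With so few libraries a sizeable share of genes can be apart by the order of values alone. The median difference over all tested genes was -0.01.

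The shift had the same shape in both groups. Across the 10654 genes, which are not independent replicates, the difference between the control libraries and the difference between the Six2-labelled libraries had a Pearson r of 0.818 and a Spearman rho of 0.829. The 2 differences share no library, but they share the cell line and the scaling by read total. Their standard deviations over genes were 0.32 and 0.31, and 82.9% of genes had the same sign in both. All 4771 called genes moved the same way in both pairs, which a call in a fit with 1 residual degree of freedom largely requires. In the layout of 2 groups by 2 numbers, replicate number held 39.2% of the summed squares over genes, the group label 56.9%, and the remainder 3.90%.

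**Figure D1:**
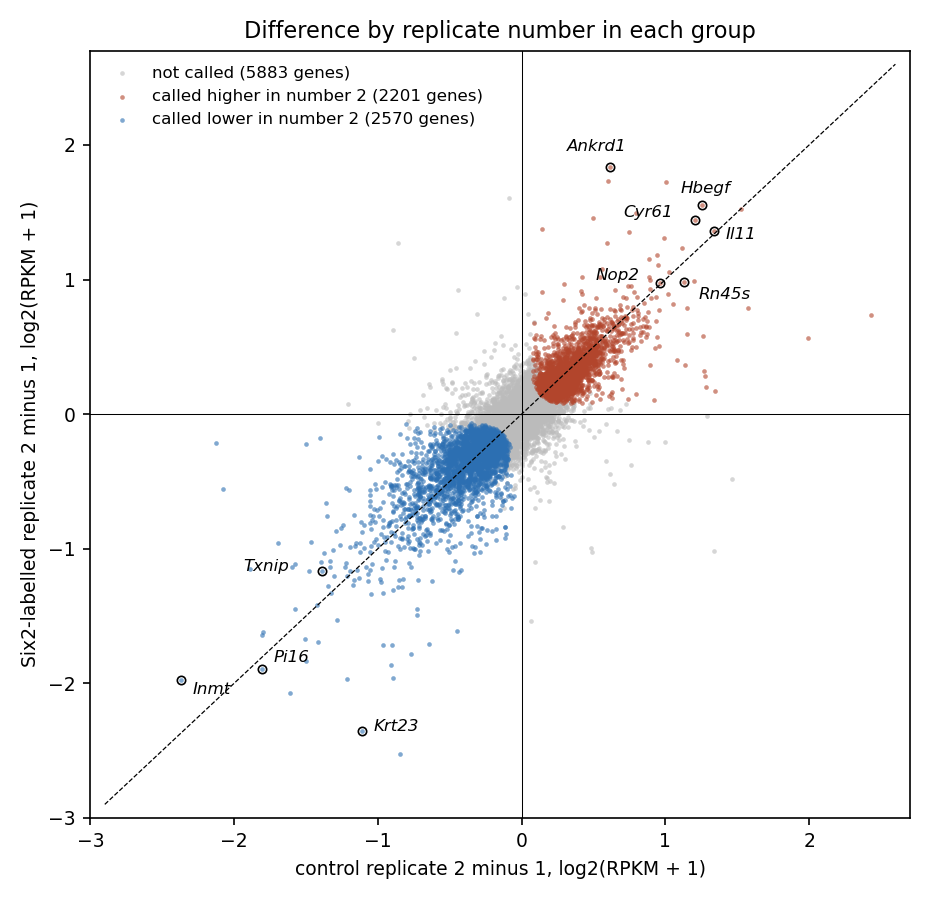
Each point is 1 of 10654 genes, with the difference of control replicate 2 minus 1 on the x axis and of Six2-labelled replicate 2 minus 1 on the y axis, both on the log2(RPKM + 1) scale; red and blue mark genes called higher and lower in number 2, and the dashed line is equality. Most points lie along the dashed line, with Il11 and Hbegf at the upper end and Inmt and Pi16 at the lower end.

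With 1 residual degree of freedom the calls lean on variances shared over genes (prior degrees of freedom 6.38). Without the group term 0 genes passed in limma-trend and 1765 had an unadjusted p under 0.05, since the group label then counts as spread between replicates.

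By comparison, the group label gave 4639 called genes (43.5%) in the same fit, and 12 where replicate number was left out of it. The median absolute difference was 0.17 by number and 0.16 by group label, and the difference by number was the larger of the pair in 5370 genes, 50.4%. Large differences were fewer by number: 99 genes reached 2-fold, against 247 by group label, of which 45 were higher and 202 lower in the Six2-labelled libraries. Both calls fell on 2265 genes, 47.5% of those called by number and 48.8% of those called by group label. These are near the shares over all tested genes, 43.5% called by group label and 44.8% called by number. Both calls also use the same variance of each gene. Gene position showed another contrast. The median difference by number on each of 20 chromosomes lay between -0.03 and 0.01, whereas the median difference by group label ran from -0.21 to 0.33.

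Promoters of 5 genes described below are shown because each was called by number, belongs to a list described below and holds a short motif known for a regulator of that list. They were chosen among members whose window has such a match. Each is the 250 bases before the RefSeq transcription start (GRCm38.p6), 5′ to 3′ on the gene's strand, with the match in capitals on either strand. Nop2 lies at chr6:125131633-125131882, plus strand, with the E-box CACGTG, bound by MYC and by MiT/TFE and clock factors. Cyr61 (now Ccn1) lies at chr3:145649986-145650235, minus strand, with the TEAD core GGAATG, read here as CATTCC. Txnip lies at chr3:96557707-96557956, plus strand, with the FOXO core GTAAACA. Ctsd lies at chr7:142387828-142388077 and Gla at chrX:134601006-134601255, both minus strand, with the core of the lysosomal CLEAR element, GTCACGTG, which contains the E-box.
Nop2: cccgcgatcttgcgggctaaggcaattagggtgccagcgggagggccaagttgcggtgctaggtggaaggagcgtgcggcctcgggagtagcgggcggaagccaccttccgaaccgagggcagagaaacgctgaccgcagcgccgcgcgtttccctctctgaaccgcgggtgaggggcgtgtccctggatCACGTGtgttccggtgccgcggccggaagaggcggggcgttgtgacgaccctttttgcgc
Cyr61: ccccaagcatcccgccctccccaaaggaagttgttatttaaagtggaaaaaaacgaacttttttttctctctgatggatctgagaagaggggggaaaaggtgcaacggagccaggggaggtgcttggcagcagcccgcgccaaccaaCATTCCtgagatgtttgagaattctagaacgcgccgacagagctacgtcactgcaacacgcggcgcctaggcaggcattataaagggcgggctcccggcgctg
Txnip: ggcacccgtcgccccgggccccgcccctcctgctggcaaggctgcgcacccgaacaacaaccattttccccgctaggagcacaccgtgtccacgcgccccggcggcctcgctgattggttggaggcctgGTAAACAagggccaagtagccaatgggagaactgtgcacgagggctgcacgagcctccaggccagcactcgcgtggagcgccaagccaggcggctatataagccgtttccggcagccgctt
Ctsd: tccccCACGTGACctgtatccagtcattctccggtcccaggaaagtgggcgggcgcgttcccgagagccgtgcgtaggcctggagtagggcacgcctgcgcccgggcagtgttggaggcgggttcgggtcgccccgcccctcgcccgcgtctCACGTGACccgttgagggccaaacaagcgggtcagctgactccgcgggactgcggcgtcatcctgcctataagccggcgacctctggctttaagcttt
Gla: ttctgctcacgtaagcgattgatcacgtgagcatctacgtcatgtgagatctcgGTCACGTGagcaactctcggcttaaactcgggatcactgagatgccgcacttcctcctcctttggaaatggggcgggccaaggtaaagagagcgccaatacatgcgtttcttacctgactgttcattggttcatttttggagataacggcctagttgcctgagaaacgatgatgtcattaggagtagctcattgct

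Genes of ribosome production had the highest median of the lists with at least 9 tested genes. All 36 listed genes were tested, 33 were called higher in number 2 and 0 lower, and their median difference was 0.48. The remaining 3, Polr1c, Nop10 and Pes1, were also above 0 but did not pass. Nop2, a nucleolar methyltransferase of ribosomal RNA, measured 41.3, 81.4, 42.8 and 85.2 RPKM. Both number 2 libraries stood far above both number 1 libraries, and the group label made almost no difference. The fitted difference was 0.97 ± 0.05 (SE, log2 scale; adjusted p = 7.45e-05, limma), a 1.98-fold ratio of mean RPKM.

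Rrs1, an assembly factor of the large ribosomal subunit, measured 17.3, 34.1, 26.2 and 48.9 RPKM, and Rrp12, an export factor of ribosomal subunits, 5.35, 10.8, 4.62 and 10.2 RPKM. Their differences were 0.91 ± 0.05 and 0.95 ± 0.07. Fbl, the methyltransferase of box C/D particles, went from 144 to 193 RPKM in the control libraries and from 138 to 200 RPKM in the Six2-labelled ones. Ncl (nucleolin) and Polr1b, a core subunit of RNA polymerase I, rose by 0.51 and 0.49. Fbl, Ncl and Polr1b were chosen after their values were seen. In contrast, of 82 cytosolic ribosomal protein genes 7 were higher and 1 lower, with a median of 0.04. Of the 7 higher ones, those of largest difference, Rpl26 (5.08 to 8.20 RPKM), Rpl34 and Rpl30, had levels far below Rps21 (790 to 1066 RPKM, lower in number 2 by 0.27). Ribosomal protein genes have many near-identical copies, so values of single genes are uncertain.

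Odc1, the rate-limiting enzyme of polyamine synthesis and a MYC target, followed the same pattern at 184, 374, 195 and 362 RPKM. Its libraries split cleanly by number, with a difference of 0.96 ± 0.06 (adjusted p = 9.73e-05, limma). Myc measured 35.5, 46.1, 37.6 and 55.9 RPKM, a smaller rise of 0.46 ± 0.06 (adjusted p = 0.00119). In the promoter windows, the E-box was found in 2 of 31 ribosome biogenesis genes, against 8.88% of all 8551 tested genes with a window. Among genes called higher it was in 10.1%, and among genes called lower in 8.96%. Nop2 is 1 of those 2.

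Of 20 cytosolic aminoacyl-tRNA synthetase genes, whose enzymes charge tRNAs with amino acids, 9 were higher and 0 lower, with a median of 0.14. Vars, the valine enzyme, measured 101, 131, 94.2 and 120 RPKM, a difference of 0.36 ± 0.05. Farsa and Iars rose by 0.34 and 0.33. The ATF4 amino acid response list, which holds enzymes and transporters raised under amino acid shortage, did not move as one: 3 of 25 were higher and 9 lower (median -0.07). Shmt2, the mitochondrial serine hydroxymethyltransferase, rose by 0.38, whereas Nupr1, a stress-induced chromatin protein, fell from 151 to 68.5 RPKM in the control libraries and from 140 to 68.4 RPKM in the Six2-labelled ones. The Nupr1 difference was -1.08 ± 0.05 (adjusted p = 7.45e-05, limma).

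Chaperone genes were mostly higher in number 2. Of 19 tested heat shock and cytosolic chaperone genes 13 were higher and 2 lower, with a median of 0.41. Hspd1, the mitochondrial chaperonin HSP60, measured 232, 426, 361 and 545 RPKM. The number 2 library was higher in each group, and the difference was 0.73 ± 0.07 (adjusted p = 0.000484, limma). Hspe1, its co-chaperonin, and Fkbp4, a co-chaperone of HSP90, rose by 0.56 and 0.62. The 2 lower genes were Cryab, a small heat shock protein (23.0, 19.1, 22.3 and 16.3 RPKM), and the strongly stress-inducible Hspa1b (7.64, 6.98, 6.85 and 3.40 RPKM). Hspa1b has a near-identical neighbour, so its reads are uncertain.

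In the endoplasmic reticulum folding list 15 of 22 were higher and 0 lower, with a median of 0.27. Hyou1, an HSP70-family chaperone of the organelle, measured 106, 189, 126 and 183 RPKM, a difference of 0.68 ± 0.07. Hspa5, the main chaperone BiP, named after its values were seen, rose from 1186 to 1720 RPKM in the control libraries and from 1397 to 1719 RPKM in the Six2-labelled ones. Creld2 and Herpud1, both induced by unfolded protein, rose by 0.48 and 0.47.

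**Figure D2:**
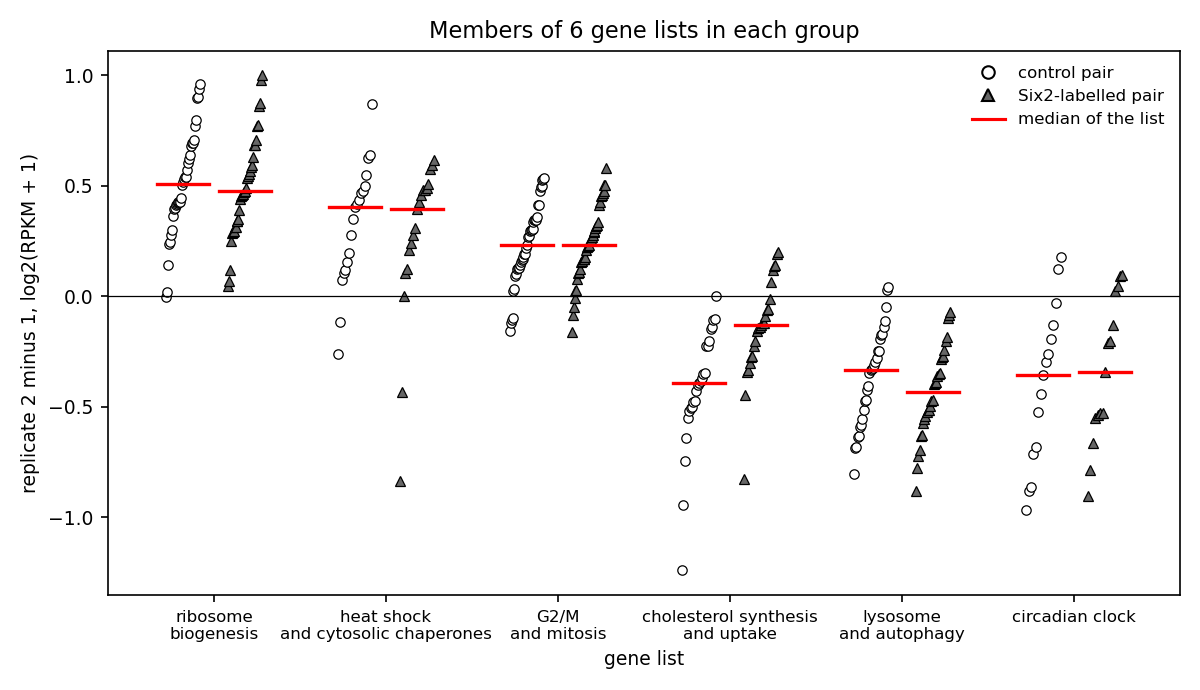
Differences of replicate 2 minus 1 on the log2(RPKM + 1) scale for the tested members of 6 gene lists, with circles for the control pair and triangles for the Six2-labelled pair, sorted within each pair, and red lines for medians. Ribosome biogenesis, chaperone and mitosis genes lie mostly above 0 and lysosome and clock genes mostly below 0 in both pairs; cholesterol genes have medians of -0.39 and -0.13.

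Growth factor and cytoskeletal genes included several of the largest rises, but their lists were mixed. Il11 (chr7:4772373-4782859, GRCm38, minus strand), a cytokine of the interleukin-6 family outside these lists, measured 22.4, 58.3, 15.7 and 42.0 RPKM. Each number 2 library exceeded both number 1 libraries, with a difference of 1.35 ± 0.05 (adjusted p = 6.71e-05, limma) and a 2.63-fold ratio of means. Hbegf, an EGF-family ligand, measured 11.7, 29.2, 7.08 and 22.7 RPKM and was higher by 1.40 ± 0.08.

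Of 20 tested ERK feedback genes and EGF-family ligands 7 were higher and 6 lower (median -0.08). Dusp5, a nuclear phosphatase of ERK, and Fosl1, an AP-1 factor held up by ERK, were higher by 1.06 and 0.85. Fosl1 measured 92.6, 155, 103 and 200 RPKM. Dusp9, another MAP kinase phosphatase, is outside this list and was named by size. It rose from 11.4 to 26.0 and from 13.2 to 32.5 RPKM. In the opposite direction Dusp4, also a MAP kinase phosphatase, measured 93.6, 69.6, 102 and 67.8 RPKM, a difference of -0.50. Phlda1 and Etv5, both ERK-induced, fell by 0.48 and 0.36.

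Of 26 tested immediate early genes, the first transcripts induced by serum or stress, 6 were higher and 8 lower (median -0.12). These counts are near the shares over all tested genes, 20.7% higher and 24.1% lower. Jun measured 28.5, 49.2, 28.2 and 44.3 RPKM, a difference of 0.70 ± 0.06. Atf3, a stress-induced factor, measured 11.1, 3.82, 8.21 and 2.68 RPKM, a difference of -1.32 ± 0.07 (adjusted p = 7.67e-05, limma). Dusp1 and Gadd45b fell by 0.76 and 0.63.

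Of 19 tested YAP/TAZ targets 9 were higher and 5 lower, with a median of 0.12. Cyr61, a secreted matricellular protein, measured 11.4, 27.7, 3.16 and 10.3 RPKM. Replicate number 2 was higher within each group, yet the groups differed so much that Six2-labelled replicate 2 lay below control replicate 1. The difference by number was 1.32 ± 0.07 (adjusted p = 8.73e-05, limma). Ankrd1, a muscle ankyrin repeat protein and sensitive YAP target, measured 38.0, 58.7, 8.40 and 32.6 RPKM, and Ctgf measured 22.3, 24.7, 3.01 and 9.39 RPKM. Their pair differences were unequal, 0.62 and 1.84 for Ankrd1 and 0.14 and 1.37 for Ctgf. The lower members included Gadd45a, also a growth-arrest gene, at 15.6, 6.89, 11.6 and 4.53 RPKM, a difference of -1.13. The TEAD core was in 7 of 13 windows of the list, against 10.3% of all tested genes. Among genes called higher it was in 9.45%, and among genes called lower in 11.9%.

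Among actin and SRF/MRTF targets 8 of 19 were higher and 3 lower (median 0.08). Tagln2, an actin-binding protein, measured 206, 323, 188 and 295 RPKM, with a difference of 0.65 ± 0.05. Actb measured 1092, 1545, 1058 and 1463 RPKM, so this common reference gene itself differed by 0.48 between numbers. Cald1 (caldesmon) and Tpm2 (a tropomyosin) fell by 0.38 and 0.36. Nppb, the natriuretic peptide BNP, and Podxl, an anti-adhesive sialomucin, rose by 1.09 and 1.15. Both were named by size and are outside this list.

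**Figure D3:**
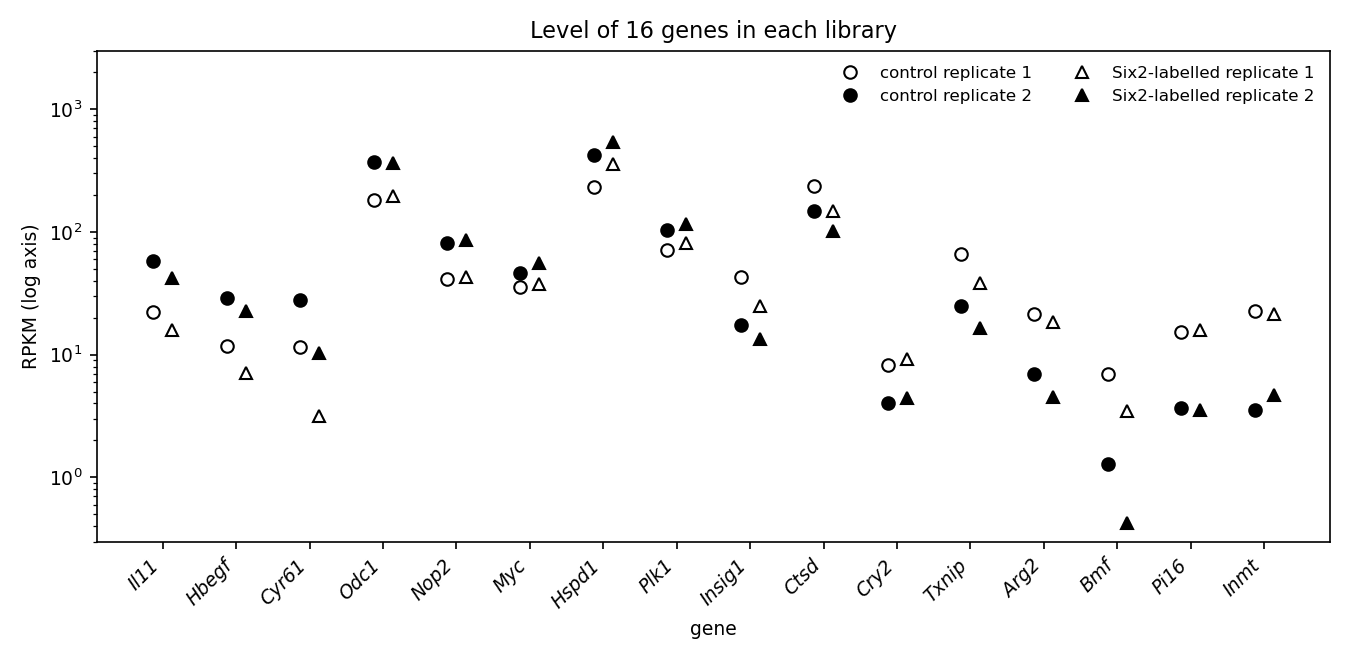
RPKM on a log axis for 16 genes, with circles for control and triangles for Six2-labelled libraries, open for replicate 1 and filled for replicate 2. Filled symbols lie above the open symbols of the same group from Il11 to Plk1 and below them from Insig1 to Inmt.

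Cell cycle genes were higher in number 2 more often than lower, with small differences. Of 39 genes of G2/M and mitosis 27 were higher and 1 lower (median 0.22), and of 46 genes of G1/S and DNA replication 19 were higher and 2 lower (median 0.13). Ccna2, the cyclin of S phase and G2, measured 63.7, 90.5, 86.7 and 130 RPKM. Plk1, the polo-like mitotic kinase, measured 71.4, 103, 81.3 and 116 RPKM. Both split by number, with differences of 0.54 ± 0.05 and 0.51 ± 0.05. Ccne2, a G1/S cyclin, measured 6.02, 9.46, 7.73 and 11.7 RPKM, a difference of 0.56 ± 0.06. The proliferation marker Mki67 measured 83.8, 91.4, 95.9 and 103 RPKM and did not pass (0.12 ± 0.05, adjusted p = 0.0894, limma). The CHR element TTTGAA was in 11 of 34 mitosis windows and CCAAT in 27 of 34, against 10.0% and 37.5% of all tested genes. Among genes called higher CHR was in 11.9% and CCAAT in 38.4%. Among genes called lower CHR was in 9.50% and CCAAT in 36.6%.

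The cyclin D, CDK inhibitor and growth-arrest list leaned the other way, with 14 of 26 tested genes lower and 3 higher (median -0.32). The 3 higher ones were Ccnd3, Rbl1 and Ccnd1. Ccnd1, the G1 cyclin D1, measured 592, 661, 588 and 673 RPKM, a difference of 0.18 ± 0.06 (adjusted p = 0.0434). Txnip (chr3:96557957-96561883, GRCm38, plus strand), an inhibitor of thioredoxin and of glucose uptake, measured 66.8, 24.9, 38.3 and 16.5 RPKM. Both number 2 libraries lay under both number 1 libraries, with a difference of -1.28 ± 0.06 (adjusted p = 7.45e-05, limma). Sesn3, a sestrin that restrains mTORC1 and a FOXO target, measured 13.3, 5.76, 11.7 and 4.79 RPKM, a difference of -1.11. Rb1, the retinoblastoma gene, measured 7.40, 3.18, 6.07 and 3.31 RPKM, a difference of -0.86. Cdkn1b, the CDK inhibitor p27, measured 43.0, 38.7, 35.3 and 34.0 RPKM and did not pass (-0.10 ± 0.05, adjusted p = 0.159). The FOXO core was in 5 of 21 windows of this list, Txnip's among them, against 2.07% of all tested genes. Among genes called higher it was in 1.81%, and among genes called lower in 2.68%.

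Other large falls, outside the list just described, were those of Bmf, Arg2 and Casp4. Bmf, a BH3-only cell death protein, measured 6.95, 1.28, 3.44 and 0.421 RPKM. The fall was similar in both groups, -1.80 and -1.64. Arg2, the mitochondrial arginase, measured 21.5, 6.96, 18.6 and 4.52 RPKM, a difference of -1.67 ± 0.09 (adjusted p = 7.49e-05, limma). Casp4, an inflammatory caspase, measured 6.54, 1.65, 10.1 and 2.48 RPKM, a difference of -1.59.

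Of 16 tested p53 targets 4 were higher and 6 lower (median -0.09), beside 20.7% and 24.1% of all tested genes. Aen, an exonuclease, measured 13.4, 23.5, 10.8 and 21.8 RPKM, a difference of 0.86. Sesn1, a sestrin, measured 7.86, 4.00, 9.08 and 3.31 RPKM, a difference of -1.02. Cdkn1a, the CDK inhibitor p21, measured 37.1, 28.6, 84.4 and 52.6 RPKM and fell by 0.52, although the Six2-labelled libraries both stood above the control ones.

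Lysosome and autophagy genes went the other way. All 30 listed genes were tested and all 30 were below 0 in the fit, 24 of them called lower and 0 higher, with a median of -0.38. Grn (progranulin) measured 228, 147, 239 and 129 RPKM, a difference of -0.76 ± 0.07 (adjusted p = 0.000319, limma). Gla, the lysosomal alpha-galactosidase, measured 17.9, 10.8, 14.8 and 8.20 RPKM, a difference of -0.73 ± 0.06. Gabarapl1, an autophagosome protein, fell by 0.66. In all 3 of these genes both number 2 libraries lay below both number 1 libraries.

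Ctsd, the aspartic protease cathepsin D, measured 236, 147, 149 and 101 RPKM, Ctsb (cathepsin B) 203, 153, 226 and 163 RPKM, and the membrane protein gene Lamp1 215, 181, 242 and 184 RPKM. These 3 were named after their values were seen, and fell by 0.62, 0.44 and 0.32. Tfeb, a master regulator of lysosomal genes, was among the called genes with a difference of -0.25. The CLEAR core was in 4 of 25 windows of the list, Ctsd with 2 matches and Gla with 1 among them, against 3.72% of all tested genes. Among all genes called lower it was in 4.04%, close to that background.

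Sterol genes were lower in number 2, with 16 of 25 tested genes called lower and 0 higher (median -0.26). The fall was larger in the control pair, whose list median was -0.39, than in the Six2-labelled pair, at -0.13; this difference was not tested. Insig1, which retains the SREBP complex in the endoplasmic reticulum, measured 42.9, 17.6, 24.7 and 13.5 RPKM, a difference of -1.03 ± 0.09 (adjusted p = 0.000319, limma). Hmgcs1, an early enzyme of the mevalonate pathway, measured 44.9, 22.8, 21.4 and 16.8 RPKM, with pair differences of -0.95 and -0.34. CCAAT was in 16 of 18 windows of the list. In fatty acid synthesis 2 of 14 were higher, among them Fasn by 0.28, and 6 lower, among them the desaturase Scd2 by 0.56 (203, 134, 140 and 96.5 RPKM).

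Calls among energy genes went in both directions, as they did over all tested genes, of which 20.7% were higher and 24.1% lower. Of 18 tested glycolysis genes 2 were higher and 5 lower (median 0.01). Aldoc, an aldolase isoform, measured 4.10, 1.46, 4.36 and 1.72 RPKM, a difference of -1.01, whereas Pgam1 rose by 0.36. Among hypoxia response genes 4 of 22 were higher and 6 lower. Ddit4, which restrains mTORC1, measured 48.5, 26.8, 57.7 and 23.0 RPKM, a difference of -1.06 ± 0.10, and Ak4, a mitochondrial adenylate kinase, 3.68, 9.39, 6.66 and 10.6 RPKM, a difference of 0.87 ± 0.12. Of 75 nuclear-encoded respiratory chain genes 5 were higher and 15 lower (median -0.07).

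Core clock and clock output genes were lower, with 10 of 15 tested genes called lower and 0 higher and a median of -0.43, which was -0.22 with no filter on low values. Cry2, a repressor of the clock, measured 8.27, 4.03, 9.15 and 4.43 RPKM, a difference of -0.89 ± 0.07 (adjusted p = 0.000192, limma). Arntl (BMAL1), the activator of the loop, measured 10.5, 5.35, 6.84 and 4.43 RPKM. A repressor and an activator thus both fell. Nr1d1 (REV-ERB alpha), named after its values were seen, fell by 0.24. The E-box was in 5 of 13 clock windows.

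Of 9 tested glucocorticoid and metal response genes 6 were lower and 1 higher. Klf9, a glucocorticoid-induced factor, measured 28.4, 18, 18.2 and 11.8 RPKM, a difference of -0.61. Tfrc, the transferrin receptor, was the higher one, at 31.6, 54.3, 38.8 and 54.4 RPKM. Fth1, the ferritin heavy chain, measured 2593, 1612, 3103 and 1675 RPKM, a difference of -0.79 ± 0.08. In the NRF2, glutathione and pentose phosphate list, which holds Fth1, 8 of 17 were lower and 2 higher. Nqo1, a quinone reductase, measured 19.0, 10.9, 17.2 and 8.11 RPKM, a difference of -0.87, whereas Gclm, of glutathione synthesis, rose by 0.37.

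Interferon-stimulated genes leaned down, with 15 of 30 tested genes lower and 1 higher (median -0.20, with -0.09 in the control pair and -0.28 in the Six2-labelled pair). Ifi27 measured 26.9, 13.7, 31.5 and 15 RPKM, a difference of -0.98 ± 0.06 (adjusted p = 8.73e-05, limma). Bst2 (tetherin) was the higher one, by 0.28. In the NF-kB, chemokine and acute phase list 9 of 22 were higher and 5 lower. Ptgs2 (cyclooxygenase-2) measured 61.4, 90.3, 20.5 and 42.6 RPKM and rose by 0.78, whereas Lcn2, the siderophore-binding lipocalin, measured 78.7, 30.6, 33.0 and 14.9 RPKM, a difference of -1.21 ± 0.07. Cxcl5, a neutrophil chemokine, measured 12, 2.49, 3.74 and 1.13 RPKM, a difference of -1.52.

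Inmt, Ccdc80 and Serpinf1 were also among the genes named by the size of their fall. Inmt (chr6:55170626-55175043, GRCm38, minus strand), an amine methyltransferase, measured 22.6, 3.57, 21.4 and 4.69 RPKM. Its difference of -2.17 ± 0.09 (adjusted p = 6.71e-05, limma) was the largest fall among genes named by size, a 5.33-fold ratio of means. Ccdc80, a matrix protein, measured 15.9, 4.52, 11.5 and 1.96 RPKM, and Serpinf1 (PEDF), an inhibitor of vessel growth, 18.4, 5.50, 13.5 and 4.29 RPKM. Their differences were -1.84 and -1.51.

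Among collagens and matrix genes 3 of 20 were higher and 7 lower (median -0.07). Thbs1 (thrombospondin-1) measured 78.3, 41.4, 33.8 and 19.1 RPKM, a difference of -0.85, and Col6a1 fell by 0.70. Of 14 proteases and inhibitors 4 were higher and 6 lower. Timp1, an inhibitor of metalloproteinases, measured 151, 250, 126 and 230 RPKM, a difference of 0.79 ± 0.06. In the TGF-beta and BMP list 11 of 20 were lower and 1 higher (median -0.25), with Id2, an inhibitor of helix-loop-helix factors, at 23.3, 13.7, 36.3 and 18.6 RPKM. The latent TGF-beta binding protein gene Ltbp1 was the higher one, by 0.40. The Notch ligand gene Jag1 rose by 0.84 and the receptor gene Notch1 fell by 0.68, in a list with 1 of 9 higher and 2 lower.

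Epithelial genes were lower or not called: 6 of 12 tested genes were lower and 0 higher (median -0.27). That median was -0.40 in the control pair and -0.17 in the Six2-labelled pair, and -0.08 where 1 RPKM was required in all 4 libraries. Krt18, the partner of Krt8, measured 800, 474, 691 and 389 RPKM, a difference of -0.79 ± 0.06 (adjusted p = 0.000177, limma). Jup (plakoglobin), of desmosomes and adherens junctions, measured 33.5, 14.6, 10.1 and 3.95 RPKM, a difference of -1.15. Cdh1 (E-cadherin), named after its values were seen, measured 14.6, 8.40, 0.186 and 0.103 RPKM. Its call (-0.42, adjusted p = 0.0463) rests on the control pair, at -0.73 against -0.11. Krt23, named by size and outside this list, measured 11.6, 4.84, 63.6 and 11.6 RPKM, with falls of 1.11 and 2.36 in the pairs. Of 7 mesenchymal genes 1 was higher and 2 lower. Among those 2, Fn1 (fibronectin) measured 667, 407, 287 and 206 RPKM, a difference of -0.59, and S100a4 measured 3524, 2589, 4343 and 2529 RPKM. Vim did not pass (0.18, adjusted p = 0.0911).

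Some markers of other cell types moved too, and only part of each list passed the filter. Of 20 leukocyte markers 4 passed the filter, all 4 called lower: Cd14, S100a8, Cd68 and Cd74. The summed level of the 20 was 180, 90.1, 89.8 and 50.8 RPKM, while Ptprc, the pan-leukocyte gene CD45, did not exceed 0.00433 RPKM and Adgre1 was at 0 in all 4. Of 12 fibroblast markers 2 passed, Pdgfra and Pi16, both lower. Pi16, a peptidase inhibitor, measured 15.4, 3.68, 16 and 3.57 RPKM, a difference of -1.85 ± 0.07, while Col3a1, Lum and Thy1 were at 0 in all 4. The fibroblast sum was 26.6, 9.57, 24.0 and 8.98 RPKM. In bulk RNA fewer cells of a type and less RNA per cell cannot be told apart, and the part of these markers in the results was not tested. Of 11 endothelial and 12 basal markers 3 each were tested, with 0 called and with 1 higher and 1 lower.

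Small nucleolar RNAs and the precursor of ribosomal RNA were among the larger rises. The libraries were made from polyadenylated RNA, and these RNAs mostly lack a poly(A) tail. How far their levels depend on carry-over through that selection was not tested. Rn45s, the precursor of ribosomal RNA, measured 340, 746, 331 and 654 RPKM, a difference of 1.05 ± 0.06 (adjusted p = 9.54e-05, limma). It exists in many copies, so the placement of its reads is uncertain. Rmrp, the RNA of the RNase MRP, rose by 1.53 on 24, 89, 13 and 103 reads. A list of snoRNA genes was added after values were seen: 72 passed the filter, of which 37 were higher and 2 lower, with a median of 0.37, or 0.15 after the trend on length and GC was removed, and a summed level of 434, 620, 499 and 625 RPKM. Their numbers of reads are small (Snord4a had 8, 15, 12 and 59), and most lie in introns of other genes, so their reads cannot be told apart from those of the host. Mir6935, the largest fitted rise among the named genes, rested on 1 read in control replicate 1.

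Host transcripts of snoRNAs showed both directions, with 5 of 10 nuclear and host RNAs higher and 3 lower. Gas5 and Snhg5, both snoRNA hosts, rose by 0.42 and 0.48. Malat1, a nuclear RNA, measured 37.1, 25.1, 34.1 and 23.9 RPKM, and Neat1, the paraspeckle RNA, 10.1, 7.05, 16.8 and 10.8 RPKM. Their differences were -0.52 and -0.53. Histone genes, whose main transcripts lack a poly(A) tail, passed the filter in 6 of 68 cases, with 1 higher and 3 lower. Of 12 housekeeping genes 5 were higher and 1 lower.

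**Figure D4:**
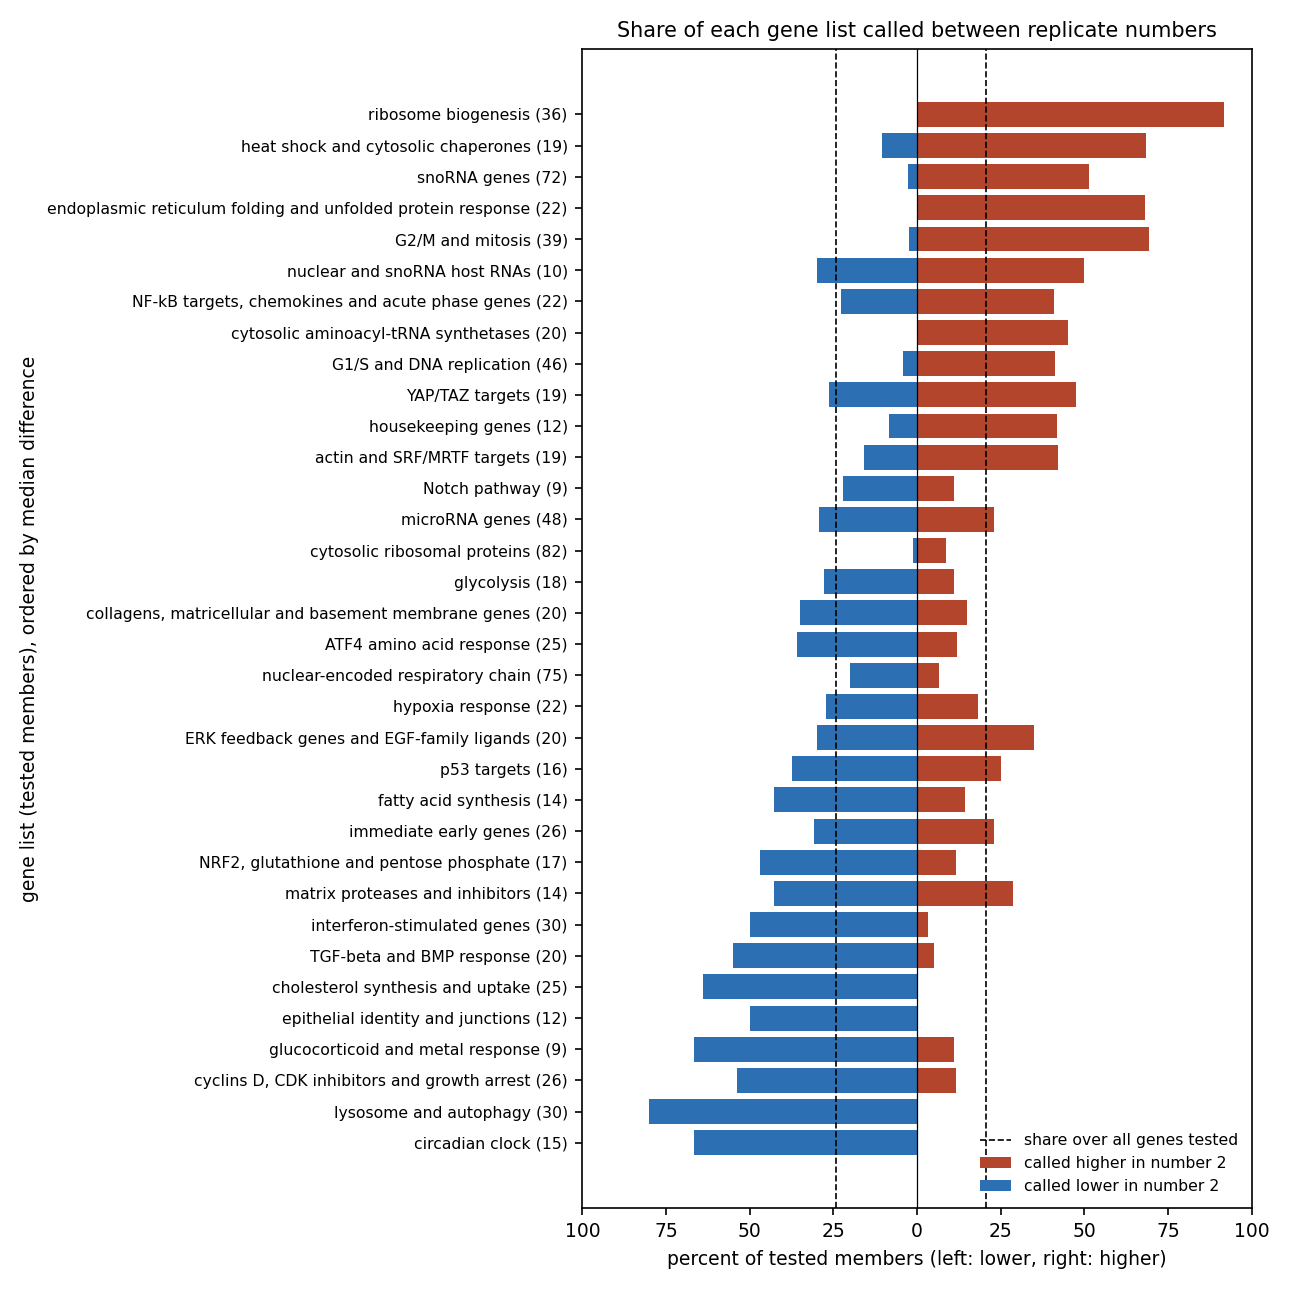
Percent of tested members called higher (right, red) and lower (left, blue) in replicate number 2 for each gene list with at least 9 tested members, ordered by median difference, with the number tested in brackets; dashed lines mark 20.7% and 24.1%, the shares over all genes tested. Ribosome biogenesis stands at the top and lysosome and clock genes at the bottom.

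Gene properties were only weakly related to the shift. The Spearman correlation of the difference by number with transcript length was 0.01, with GC content -0.08 and with mean level 0.14, across genes. Length and GC together held 1.18% of the variance of the control pair and 1.12% of that of the Six2-labelled pair. Other scalings moved the median of all genes by at most 0.03 on the log2 scale. Under quantile normalization 52.6% of calls were higher, against 46.1% here.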

How the data were processed

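Polyadenylated RNA of 4 libraries was sequenced from stranded TruSeq mRNA libraries, per the labels' protocols. Alignment tools TopHat2 2.1.1 and Bowtie2, the counter HTSeq 0.8.0, Picard 2.9.4, SAMtools 1.5, FastQC 0.11.5 and bcl2fastq 1.8.4, and the builds mm10 and GRCm38, are named per the submitters' processing notes. No source used here gives the annotation, gene lengths, strand setting or treatment of shared reads, which leaves values of near-identical copies, antisense and overlapping genes uncertain. Values were deposited as RPKM by the authors, scaled by gene length and read total.

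Whole reads were recovered from the RPKM steps: 14457 of 14459 genes above 0 in at least 3 libraries were whole within 0.001 reads. Each read number is the smallest that fits the steps, and could be a fraction of the true one. Limma 3.58.1 in R 4.3.3 (limma-trend, two-sided) fitted log2(RPKM + 1) on group and replicate number, and p-values were adjusted by Benjamini-Hochberg over 10654 genes (1 RPKM reached in at least 2 libraries). Fold changes on this scale understate low genes. Ratios are of mean RPKM. The script was tested on simulated data, which checks the code and not the calls made here.

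The members and the gene lists were chosen with earlier results of these data known, so counts of lists are descriptions. Genes were named by rule: Six2, Mki67, Ccnd1, Cdkn1b and Myc; up to 20 called genes in each direction by size, with libraries apart by number, 5 RPKM or more on average in the higher number and no clone, model or pseudogene name; and up to 3 called per list and direction. Others are said to be named after their values were seen, or are given by name or difference as members of a described list. Some genes that the rule would name are not reported here. Coordinates are GENCODE M21 (GRCm38), matched by symbol for 99.4% of tested genes. Alternatives were other scalings, pseudocounts, filters, variance models, covariates and libraries left out.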

Additional observations from a re-analysis of the deposited data

Results flagged for a closer look

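For 8 gene lists with at least 5 tested members the median difference between replicate numbers had opposite signs in the control pair and the Six2-labelled pair. A list was flagged for these signs alone, and the difference between the pairs was not tested. Fatty acid synthesis genes had a median of -0.333 in the control pair and 0.0244 in the Six2-labelled pair. Mesenchymal genes had -0.199 and 0.00194, in the same order. The reverse order was seen for hypoxia response genes, at 0.0567 and -0.187, ERK feedback genes and EGF-family ligands, at 0.0594 and -0.122, Notch pathway genes, at 0.0934 and -0.0406, and glycolysis genes, at 0.0295 and -0.0631. Cytosolic ribosomal protein genes stood near 0 in both pairs, at -0.0114 and 0.0668. MicroRNA genes, a list added after values were seen, had -0.135 and 0.0859. Of 1163 such genes 48 passed the filter, 11 called higher and 14 lower, beside 20.7% and 24.1% of all tested genes.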

How the results depend on the processing

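The numbers of genes called, 2201 higher and 2570 lower, were within 1.5 times under median-of-ratios scaling, quantile normalization, a pseudocount of 0.1, a filter of 1 RPKM in all 4 libraries, voom on recovered reads, variances without the trend, and removal of the length and GC trend with the replicate block kept. With no filter on low values they were 1143 and 1440. In a test against a fold of 1.5 they were 15 and 60. Without the group term they were 0 and 0 (1765 genes at an unadjusted p under 0.05), and without the group term and without any 1 library they ranged from 0 to 0 (512 to 1322 genes at an unadjusted p under 0.05). The numbers at least 2-fold, 20 and 79, became 47 and 181 with a pseudocount of 0.1. The group label gave 4639 calls with the replicate block and 12 with no replicate block; the numbers pair the samples only by number, and the labels do not say that they mark a shared culture. Of 207 named genes that passed, 53 were no longer past the threshold with no filter, 15 without the variance trend, 15 after the length and GC removal, 12 under quantile normalization, 1 under median-of-ratios scaling, 1 under voom and 207 without the group term, and 0 reversed. Small list medians changed sign: p53 targets to 0.0460 and microRNA genes to -0.0856 with 1 RPKM in all 4 libraries, the Notch pathway to -0.0425 and basal and myoepithelial markers to -0.00975 with no filter, cytosolic ribosomal proteins to -0.0022 under quantile normalization and microRNA genes to -0.0993 after the length and GC removal. Leaving out a library left only the pair of the other group, so the values that follow from it are pair medians. Basal markers were at -0.0406 without either control library. Each of the 8 lists with opposite signs in the pairs had to change sign when a library of 1 of the groups was left out. That change is therefore no further check. The median of histone genes reversed with no filter, to 0.0869. That of endothelial markers was -0.0565 without a control library and 0.0633 without a Six2-labelled one, again its pair medians. The median of leukocyte markers shrank to -0.0607 with no filter. Low genes are limited by depth: 3 reads on 1 kb were 0.0716 RPKM in control replicate 2 and 0.0368 RPKM in Six2-labelled replicate 2.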

Other observations

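Several genes outside the lists moved by number in both pairs. Mfsd2a, a lysophosphatidylcholine transporter, measured 4.54, 10.3, 3.43 and 8.20 RPKM in control 1, control 2, Six2-labelled 1 and Six2-labelled 2, and Atp10a, a phospholipid flippase, 6.55, 13.6, 5.77 and 13.6 RPKM. Rin1, a RAS effector, measured 11.8, 22.7, 10.6 and 22.4 RPKM. Both number 2 libraries were above both number 1 libraries in all 3, with rises of 1.04, 1.03 and 0.95 on the log2(RPKM + 1) scale. Folr1, a folate receptor, measured 12.8, 4.17, 21.7 and 6.01 RPKM, a difference of -1.55. Slco4a1, an organic anion transporter, measured 68.0, 36.1, 106 and 26.3 RPKM, with falls of 0.89 and 1.96 in the pairs. Gstt1, a glutathione transferase, measured 8.79, 2.28, 4.37 and 1.48 RPKM, a difference of -1.35.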
